A study of Homo sapiens with 10 samples.

Results

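The genes described here move fatty acyl groups on and off carnitine and carry carnitine and its esters across membranes: CPT1A, CPT1B, CPT1C, CPT2, CRAT, CROT, SLC25A20 and SLC22A5. They were taken by symbol from the count tables, and all 8 were among the 19215 gene symbols listed there. CPT1A heads the list because of its change in HepG2 cells, so for all 8 genes the comparison within HepG2 is given as a description, with no p-value. Where a member is said to be called there, this only places it among the genes past an adjusted p of 0.05 in edgeR, and nothing is supported with it. The other 7 complete the family and the transport route.

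RNA was sequenced from 10 libraries of 2 human liver tumour lines, HepG2, which has hepatocyte features, and SK-Hep1, which has a reported endothelial origin. Virus encoding a decoy was applied for 48 h with a multiplicity of infection of 5 and 10.0 µg/mL of polybrene, and puromycin at 1.0 µg/mL then selected carriers over 2 weeks, in medium with 10% fetal bovine serum. The decoy was either a tough decoy for miR-17 (miR-17 TuD), an RNA that sequesters microRNAs of this family, or a control (NC TuD), so both arms carry a vector and its resistance gene. There were 3 libraries in each HepG2 arm and 2 in each SK-Hep1 arm. Resistant colonies were combined, so each arm of each line is 1 stable population, and an effect of the decoy and one of the history of that population cannot be told apart. The labels do not say that libraries of an arm came from separate cultures, so p-values measure the spread between libraries, which may be technical.

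Long-chain fatty acids reach the mitochondrial matrix as carnitine esters. A carnitine palmitoyltransferase 1 (CPT1) on the outer membrane makes the ester, the translocase encoded by SLC25A20 exchanges it for free carnitine across the inner membrane, and CPT2 turns it back into acyl-CoA for β-oxidation. CPT1A is the liver form, CPT1B the muscle form and CPT1C a neuronal form, and CPT1 is inhibited by malonyl-CoA, an intermediate of fatty acid synthesis. CRAT handles acetyl and other short acyl groups, CROT handles the medium-chain products of peroxisomal oxidation, and SLC22A5 (OCTN2) brings carnitine into the cell.

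Because the decoy acts on microRNAs, the seed of the miR-17 family and its matches in these transcripts are shown first. The mature sequences below are from RefSeq (GRCh38.p14), 5′ to 3′, with the seed at bases 2 to 8 in capitals, and the seed is the same in all.
hsa-miR-17-5p: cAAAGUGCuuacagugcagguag
hsa-miR-20a-5p: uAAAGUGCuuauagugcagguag
hsa-miR-93-5p: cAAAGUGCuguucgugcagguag
hsa-miR-106b-5p: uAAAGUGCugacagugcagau

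For each gene, the transcript with the longest 3′ untranslated region (3′UTR) in GENCODE 29 (GRCh38) was searched for this seed, on its own strand only. The letters GCACTTTA were named an 8mer, GCACTTT without that last A a 7mer-m8, and CACTTTA without a G before it a 7mer-A1. Of the 8 genes, 3 held a match: CPT1A had one 7mer-m8 in a 3′UTR of 2755 bases, CROT had an 8mer and a 7mer-m8 in 1151 bases, and SLC22A5 had a 7mer-A1 in 1342 bases. The 8mer of CROT and the match in SLC22A5 follow with 10 bases on each side and the match in capitals, to show the strongest and the weakest kind found. They lie on the plus strand at chr7:87399033-87399040 and chr5:132395416-132395422.
CROT, 8mer: catctttcaaGCACTTTAatttttttag
SLC22A5, 7mer-A1: cagagtagctCACTTTAgtcctgtaac

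CPT1B, CPT1C, CPT2, CRAT and SLC25A20 had none of the 3 kinds of match in the 3′UTR searched, which were 126 to 805 bases long. A match is a description of the letters, not evidence of binding.

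CPT1A, the liver form of the enzyme at the entry step, differed most between the HepG2 arms among the members. Its level, in CPM (the usual unit of counts scaled to library size, here with totals adjusted by the trimmed mean of M values, TMM), was 20.2, 22.2 and 21.1 CPM in the HepG2 NC TuD libraries and 59.7, 62.4 and 57.1 CPM in HepG2 miR-17 TuD. In SK-Hep1 it was 45.0 and 49.6 CPM with NC TuD and 45.9 and 45.0 CPM with miR-17 TuD. In these bulk libraries, fewer cells that express a gene and less RNA per cell cannot be told apart. The HepG2 control libraries are thus the low group, the HepG2 decoy libraries lie above every SK-Hep1 library, and the SK-Hep1 arms overlap. CPT1A lies at chr11:68754620-68844410 (GRCh38, minus strand).

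In HepG2 the log2 fold change of CPT1A, miR-17 TuD over NC TuD, was 1.50 ± 0.07 (SE, n = 3 per arm), or 2.83-fold, from 21.2 ± 0.99 to 59.7 ± 2.65 CPM (SD). It ranked 201st from the top among the 13349 genes tested. In SK-Hep1, whose libraries had no part in its choice, it was -0.06 ± 0.07 (n = 2 per arm, adjusted p = 0.896 by edgeR), with a 95% interval from -0.21 to 0.09. The 95% interval in HepG2 ran from 1.36 to 1.63. CPT1A was chosen on that comparison, so the gap between the 2 intervals is no test of a difference between the lines. Leaving out SK-Hep1 NC TuD replicate 2 turned the SK-Hep1 value to 0.01, again not past the test.

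**Figure D1:**
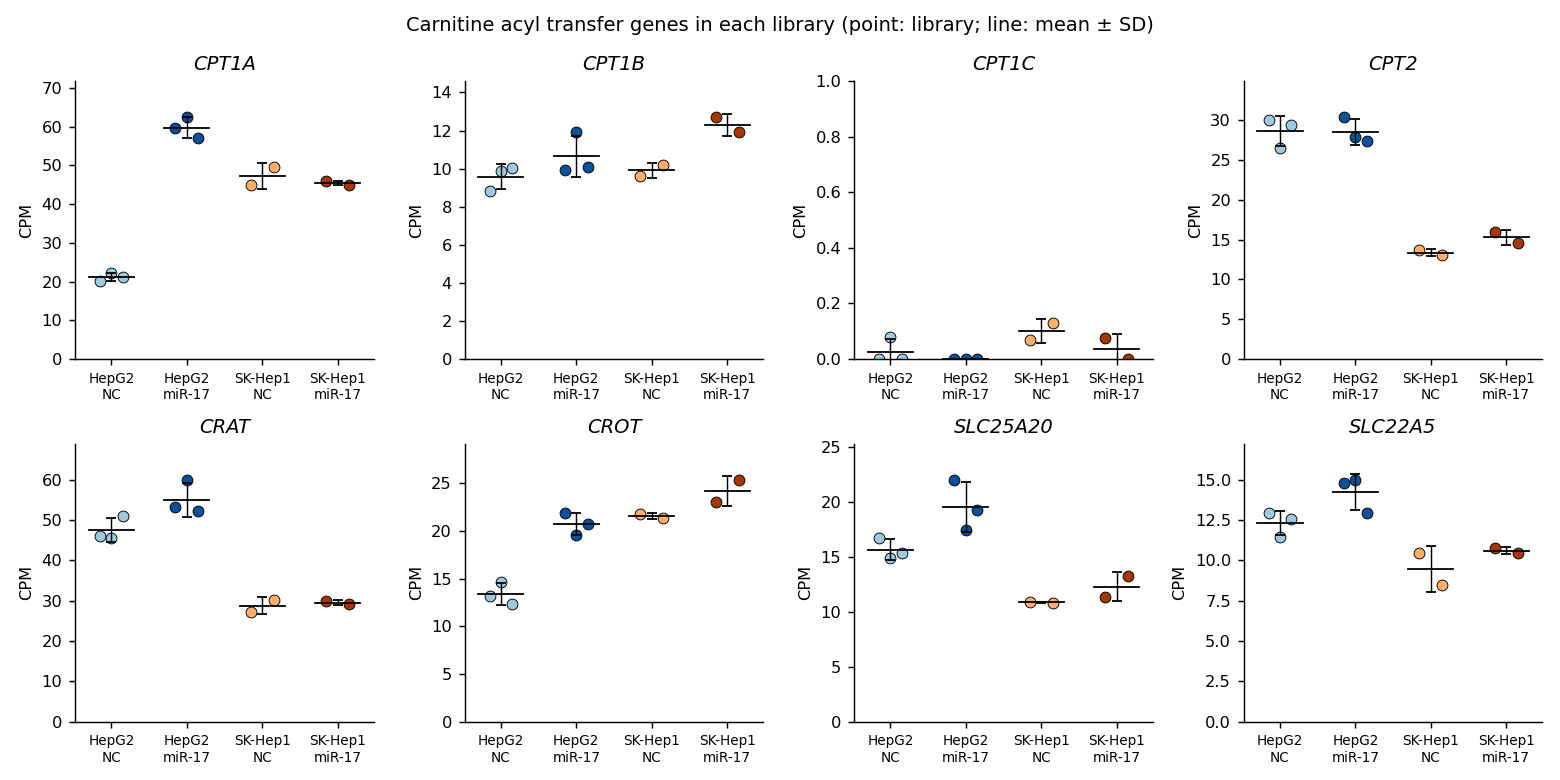
Level of each carnitine acyl transfer gene in every library, in CPM on a linear axis that starts at 0, with the mean and SD of each group. CPT1A stands at 20.2 to 22.2 CPM in HepG2 NC TuD and at 45.0 CPM or above in all other libraries, CROT is likewise lowest in HepG2 NC TuD, and CPT1C is at or near 0 throughout.

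CPT1B, the muscle form, was expressed at a low and similar level in all 4 groups. It stood at 8.83, 9.86 and 10.0 CPM in HepG2 NC TuD and at 9.94, 11.9 and 10.1 CPM in HepG2 miR-17 TuD, where the arms overlap. In SK-Hep1 it stood at 9.63 and 10.2 CPM with NC TuD and at 12.7 and 11.9 CPM with miR-17 TuD, with the decoy libraries higher. The log2 fold change in SK-Hep1, 0.31 ± 0.13, did not pass the test (adjusted p = 0.456 by edgeR, interval 0.05 to 0.57), and that in HepG2 was 0.16 ± 0.11. The HepG2 value was 0.06 without miR-17 TuD replicate 2 and 0.10 without NC TuD replicate 1. The gene overlaps the readthrough transcript CHKB-CPT1B, which has no entry of its own in the count table, so reads of that transcript cannot be told apart from CPT1B.

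CPT1C, the neuronal form, had no count in any HepG2 miR-17 TuD library and at most 2 counts in any other. That is below the 3 counts, 0.199 to 0.233 CPM by library, that a count of 0 still allows, so it was not detectable at this depth and is left out of fold changes. It was the only member that did not pass the filter on low counts.

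Levels of different genes are compared per length, as CPM per kb of exon (GENCODE 29). CPT1A made up 53.1 ± 1.10% (SD, n = 3) of the summed CPT1A, CPT1B and CPT1C in HepG2 NC TuD and 74.3 ± 1.31% in HepG2 miR-17 TuD. In SK-Hep1 the shares were 70.8 ± 0.548% with NC TuD and 65.4 ± 0.834% with miR-17 TuD (n = 2 each). In the HepG2 control cells the liver and the muscle form were thus close to each other per length, at 3.66 ± 0.171 and 3.23 ± 0.221 CPM per kb. These shares follow from the CPT1A levels used to choose the list and carry no test.

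**Figure D2:**
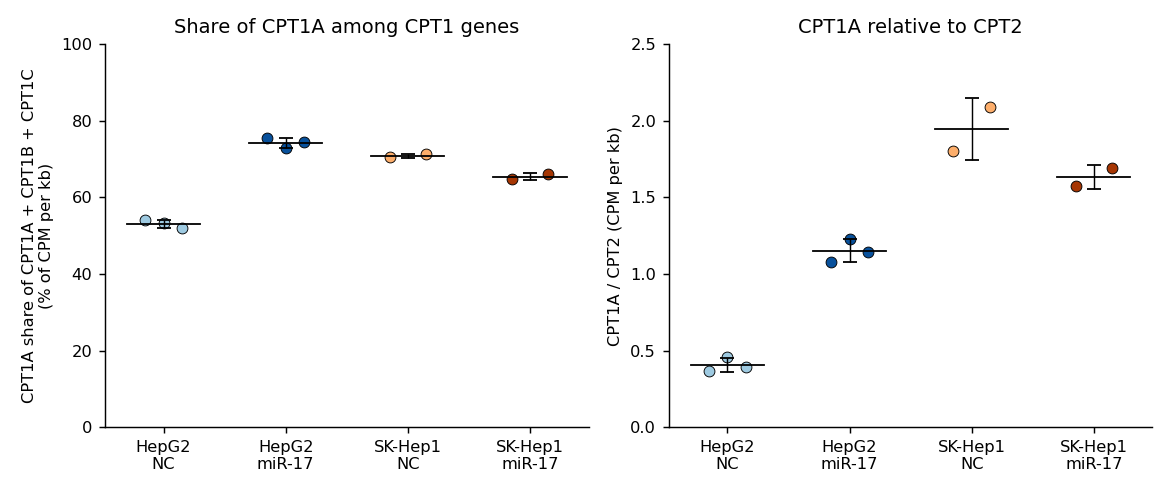
Left, share of CPT1A in the summed CPM per kb of the 3 CPT1 genes, and right, the ratio of CPT1A to CPT2 in CPM per kb, for each library with the group mean and SD. HepG2 NC TuD lies lowest in both panels, at 53.1% and at a ratio of 0.408.

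CPT2, the matrix enzyme that reverses the CPT1 step, had overlapping arms in HepG2. It stood at 30.1, 26.5 and 29.4 CPM in HepG2 NC TuD and at 30.4, 27.9 and 27.4 CPM in HepG2 miR-17 TuD. The log2 fold change was -0.01 ± 0.07, with an interval from -0.16 to 0.14 and a sign that turned under other scalings. In SK-Hep1 it stood at 13.7 and 13.1 CPM with NC TuD and at 16.0 and 14.63 CPM with miR-17 TuD, a log2 fold change of 0.19 ± 0.11 that did not pass the test (adjusted p = 0.694 by edgeR). The ratio of CPT1A to CPT2 per length was 0.408 ± 0.0470 in HepG2 NC TuD, 1.152 ± 0.0749 in HepG2 miR-17 TuD, 1.95 ± 0.201 in SK-Hep1 NC TuD and 1.63 ± 0.0806 in SK-Hep1 miR-17 TuD.

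CROT, the peroxisomal octanoyltransferase and the member with an 8mer, had the second largest change in HepG2. It stood at 13.2, 14.63 and 12.4 CPM in HepG2 NC TuD and at 21.8, 19.6 and 20.7 CPM in HepG2 miR-17 TuD, with no overlap. The log2 fold change was 0.63 ± 0.09 (interval 0.45 to 0.81). In SK-Hep1 it stood at 21.8 and 21.3 CPM with NC TuD and at 23.1 and 25.3 CPM with miR-17 TuD. There the log2 fold change was 0.17 ± 0.10, which did not pass the test (adjusted p = 0.678 by edgeR, interval -0.03 to 0.36), and was 0.10 without miR-17 TuD replicate 2. As for CPT1A, HepG2 NC TuD was the low group of the 4.

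CRAT, the short-chain acetyltransferase, was the most abundant member per length in HepG2, at 14.7 ± 0.915 CPM per kb with NC TuD and 16.98 ± 1.30 CPM per kb with miR-17 TuD. Its libraries stood at 46.0, 45.6 and 51.0 CPM with NC TuD and at 53.1, 59.9 and 52.2 CPM with miR-17 TuD, a narrow gap between arms. The log2 fold change in HepG2 was 0.21 ± 0.06. It was called higher there, but not without decoy replicate 2 or control replicate 1 or 2, nor on the deposited log2 matrix. In SK-Hep1 the arms overlapped, at 27.3 and 30.2 CPM against 29.9 and 29.1 CPM, and the log2 fold change was 0.04 ± 0.09 (adjusted p = 0.964 by edgeR).

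Both transporters were somewhat higher in HepG2 with the decoy. SLC25A20, the carnitine-acylcarnitine translocase, stood at 16.7, 14.9 and 15.4 CPM with NC TuD and at 22.0, 17.5 and 19.3 CPM with miR-17 TuD, a log2 fold change of 0.32 ± 0.09. It was called higher in HepG2, but not without miR-17 TuD replicate 1, the highest library, nor by DESeq2 or on the deposited log2 matrix. SLC22A5, the plasma membrane carnitine transporter, stood at 12.9, 11.5 and 12.6 CPM with NC TuD and at 14.8, 14.98 and 12.97 CPM with miR-17 TuD. Its log2 fold change of 0.21 ± 0.10 was not called. In SK-Hep1 neither passed the test, with 0.18 ± 0.13 for SLC25A20 (adjusted p = 0.771 by edgeR) and 0.17 ± 0.14 for SLC22A5 (adjusted p = 0.818). With 2 libraries per arm, single libraries moved both values. SLC25A20 was at 0.06 without miR-17 TuD replicate 2 and 0.29 without miR-17 TuD replicate 1. SLC22A5 stood at 0.015 or 0.32 when either NC TuD library was left out, the lower value without replicate 2.

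**Figure D3:**
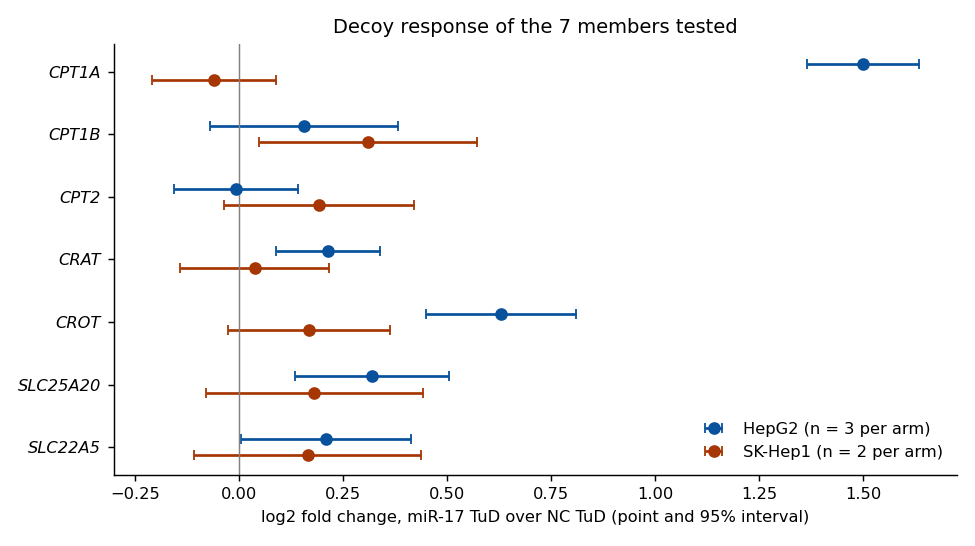
Log2 fold change of miR-17 TuD over NC TuD for the 7 members tested, as the point and its 95% interval, in HepG2 and in SK-Hep1. CPT1A is at 1.50 in HepG2 and -0.06 in SK-Hep1, CROT at 0.63 and 0.17, and the HepG2 and SK-Hep1 intervals overlap for the other 5.

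Counted over the list, 4 of the 7 members tested were called higher in HepG2 and none lower, where 19.3% of all genes tested were called, 10.7% higher and 8.58% lower. All decoy libraries lay above all controls for 5 of the 7, beside 16.1% of all genes. Since CPT1A was chosen on this comparison, nothing is read from these counts. The median log2 fold change was 0.21 over the members and 0.00 over all genes tested. In SK-Hep1 none of the 7 was called by edgeR, where 0.869% of all genes were called in either direction and 0.667% higher. All decoy libraries lay above all controls there for 4 of the 7, beside 18.4% of all genes. At an unadjusted p below 0.05 there was 1 (CPT1B), and the deposited log2 matrix also called none. DESeq2 called none of the 5 to which it gave an adjusted p, which leave out CPT1B and SLC22A5. The SK-Hep1 median was 0.17 over the members, beside -0.01 over all genes. Of the 7 values, 6 were above 0 in each line, beside 6581 of 13349 genes tested in HepG2 and 6140 in SK-Hep1. The HepG2 count again holds the comparison CPT1A was chosen on.

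The difference of the decoy responses, HepG2 minus SK-Hep1, was 1.56 ± 0.10 on the log2 scale for CPT1A and 0.46 ± 0.13 for CROT. Of the 7 members these 2 were called, where 3.75% of all genes were, but both hold the HepG2 comparison and stand as descriptions. For the other members it lay between -0.20 ± 0.14 (CPT2) and 0.18 ± 0.11 (CRAT), with intervals that include 0. The CRAT value was 0.11 without HepG2 miR-17 TuD replicate 2 and 0.10 without SK-Hep1 NC TuD replicate 2.

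The lines were compared in control cells, SK-Hep1 NC TuD against HepG2 NC TuD, which share their libraries with the decoy comparisons. Of the 7 members 6 were called by edgeR, 2 higher and 4 lower in SK-Hep1, where 86.7% of all genes tested were called (43.9% higher, 42.8% lower), so that differing between these lines sets no member apart. CROT was higher in SK-Hep1 by 0.69 ± 0.10 on the log2 scale (adjusted p = 5.93e-09 by edgeR), with no overlap of libraries. CPT1A was higher by 1.16 ± 0.08, given with no p-value because its low HepG2 NC TuD libraries also entered the comparison it was chosen on. CPT2 was lower in SK-Hep1 (-1.10 ± 0.10, adjusted p = 4.67e-16 by edgeR), as were CRAT (-0.73 ± 0.08), SLC25A20 (-0.53 ± 0.11) and SLC22A5 (-0.39 ± 0.12). The call of SLC22A5 was lost without SK-Hep1 NC TuD replicate 2 (-0.24). CPT1B did not pass (0.05 ± 0.13, adjusted p = 0.711). The members highest per length differed between the lines: CRAT, CPT2 and SLC25A20 led in HepG2 NC TuD, at 14.7, 9.01 and 8.30 CPM per kb, and CRAT and CPT1A in SK-Hep1 NC TuD, at 8.86 and 8.17 CPM per kb, a pair whose libraries overlap.

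The cells were checked against marker genes. All 8 hepatocyte markers reached 1 CPM in both HepG2 arms, and their summed level was 48978 to 51214 CPM with NC TuD and 41651 to 44236 CPM with miR-17 TuD, against 73.4 to 98.3 CPM in SK-Hep1. The 4 epithelial markers, all of which reached 1 CPM in HepG2, summed to 2430 to 2509 CPM with NC TuD and 2694 to 2933 CPM with miR-17 TuD. Neither pair of ranges overlaps, so these lists moved with the HepG2 arms, and their part in the differences of the carnitine genes was not tested. In SK-Hep1 2 of the 4 epithelial markers reached 1 CPM. Their sums were higher there, at 4729 to 4862 CPM with NC TuD and 4590 to 4592 CPM with miR-17 TuD. Sums of 3 blood cell markers were also apart in HepG2 (2516 to 2601 and 2196 to 2340 CPM). PTPRC and HBB had no count in any HepG2 library, so that sum is LYZ alone. Sums of 5 mesenchymal markers overlapped in HepG2 (15083 to 16423 and 15927 to 16248 CPM). In SK-Hep1 they were apart, at 17805 to 18190 CPM with NC TuD and 19419 to 19917 CPM with miR-17 TuD. None of 5 endothelial markers reached 1 CPM in SK-Hep1 (summed 0.0700 to 0.281 CPM), where PECAM1 and KDR had no count, while 2 of the 5 did in HepG2 NC TuD (summed 2.40 to 2.94 CPM). ALB was detected in SK-Hep1 NC TuD at 59 and 113 counts and in SK-Hep1 miR-17 TuD at 0 and 4. In CPM, the highest of these was 0.0816% of the lowest HepG2 library. By the same measure CPT2 and CRAT in SK-Hep1 stood at no less than 49.4% and 59.7%. The source of the ALB reads in SK-Hep1 was not tested.

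Genes around the carnitine step were taken from 7 lists of 80 genes in all, of which 73 were tested. In HepG2, 10 were called higher and 7 lower by edgeR, with a median log2 fold change of -0.02, where 10.7% and 8.58% of all genes were called. Fewer were called there by DESeq2 (8, of 72 with an adjusted p) and on the deposited log2 matrix (5). In SK-Hep1, 1 of the 73 was called by edgeR (6 at an unadjusted p below 0.05). DESeq2 called 1, of 61 with an adjusted p, and the deposited log2 matrix 2. Those 2 do not include the gene that edgeR called, and 1 of them was PPARGC1A, with no more than 2 counts in any SK-Hep1 library. No other gene of the lists was as far from 0 in HepG2 as CPT1A.

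The clearest changes among them concerned the handling of fatty acids before the carnitine step. Of 13 genes for uptake and activation to acyl-CoA, 3 rose and 3 fell in HepG2, where 10.7% and 8.58% of all genes tested were called. CD36, a fatty acid translocase of the plasma membrane, rose by 0.56 ± 0.10, from 12.5 ± 0.210 to 18.5 ± 0.353 CPM (adjusted p = 1.02e-05 by edgeR), and the acyl-CoA synthetase gene ACSL1 by 0.39 ± 0.05. The cytosolic fatty acid binding protein gene FABP1 fell (-0.66 ± 0.05), and so did ACSL3, another acyl-CoA synthetase gene (-0.35 ± 0.04). ACSL1, ACSL3 and FABP1 were called under each of 14 alternative settings, and CD36 under all but the deposited log2 matrix.

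Genes that set malonyl-CoA, the inhibitor of CPT1, moved little in HepG2, where 10.7% of all genes tested were called higher. Of 10 tested, ACACB, which encodes the acetyl-CoA carboxylase at the mitochondrial surface, was called higher (0.23 ± 0.08, adjusted p = 0.0254 by edgeR), a call lost under 7 of 14 alternatives, among them the absence of replicate 1 or 2 of either arm. ACACA, the cytosolic carboxylase of fatty acid synthesis, was at -0.05 ± 0.04 and MLYCD, which removes malonyl-CoA, at 0.22 ± 0.10 (adjusted p = 0.124), neither past the test. Carnitine synthesis and other carnitine transporters had 3 tested genes and no call by edgeR, by DESeq2 or on the deposited log2 matrix, with 0 at an unadjusted p below 0.05.

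Mitochondrial β-oxidation genes, which act after CPT2, had 3 higher and 1 lower of 18 tested in HepG2. Over all genes tested there, 10.7% were called higher and 8.58% lower. ACADVL, the very-long-chain acyl-CoA dehydrogenase, rose by 0.13 ± 0.04, ACAD10 by 0.23 ± 0.08 and the enoyl-CoA isomerase gene ECI1 by 0.17 ± 0.06, while ACADM, the medium-chain dehydrogenase, fell by 0.16 on the log2 scale. Each of these 4 calls was lost without HepG2 miR-17 TuD replicate 2 and without NC TuD replicate 2. Leaving out miR-17 TuD replicate 1 ended those of ACAD10, ACADM and ECI1, and leaving out NC TuD replicate 1 those of ACAD10, ACADM and ACADVL. Of 12 peroxisomal genes tested, 1 was called higher and 1 lower, beside the same shares of all genes. The lower was the transporter gene ABCD3, at -0.15 ± 0.04, not called once miR-17 TuD replicate 2 was left out. In ketone body metabolism BDH1 rose by 0.36 ± 0.10, which was not called once miR-17 TuD replicate 1 was left out.

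PPARA, the nuclear receptor that drives fatty acid oxidation genes including CPT1A in liver, was level in HepG2 (48.3 ± 1.37 and 49.2 ± 1.46 CPM, 0.02 ± 0.06, adjusted p = 0.862 by edgeR). Its coactivator gene PPARGC1A was at -0.05 ± 0.07 and had no more than 2 counts in any SK-Hep1 library, so no fold is given there. Of 12 tested PPAR regulators and targets, ACOT1 rose in HepG2 by 0.32 ± 0.09, and PPARGC1B (-0.45 ± 0.14) and the lipid droplet gene PLIN2 (-0.11 ± 0.04) fell. These were 1 higher and 2 lower, beside 10.7% and 8.58% of all genes tested. The ACOT1 call was lost without miR-17 TuD replicate 2, that of PPARGC1B without decoy replicate 1 or control replicate 3, and that of PLIN2 without decoy replicate 1 or 3 or control replicate 1. The gene called in SK-Hep1 was ANGPTL4, a secreted inhibitor of lipoprotein lipase, from 60.7 ± 1.52 to 79.2 ± 9.69 CPM (0.38 ± 0.08, adjusted p = 0.00225 by edgeR). That call was lost on the deposited log2 matrix (adjusted p = 0.907 by limma) and when replicate 1 of either SK-Hep1 arm was left out.

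**Figure D4:**
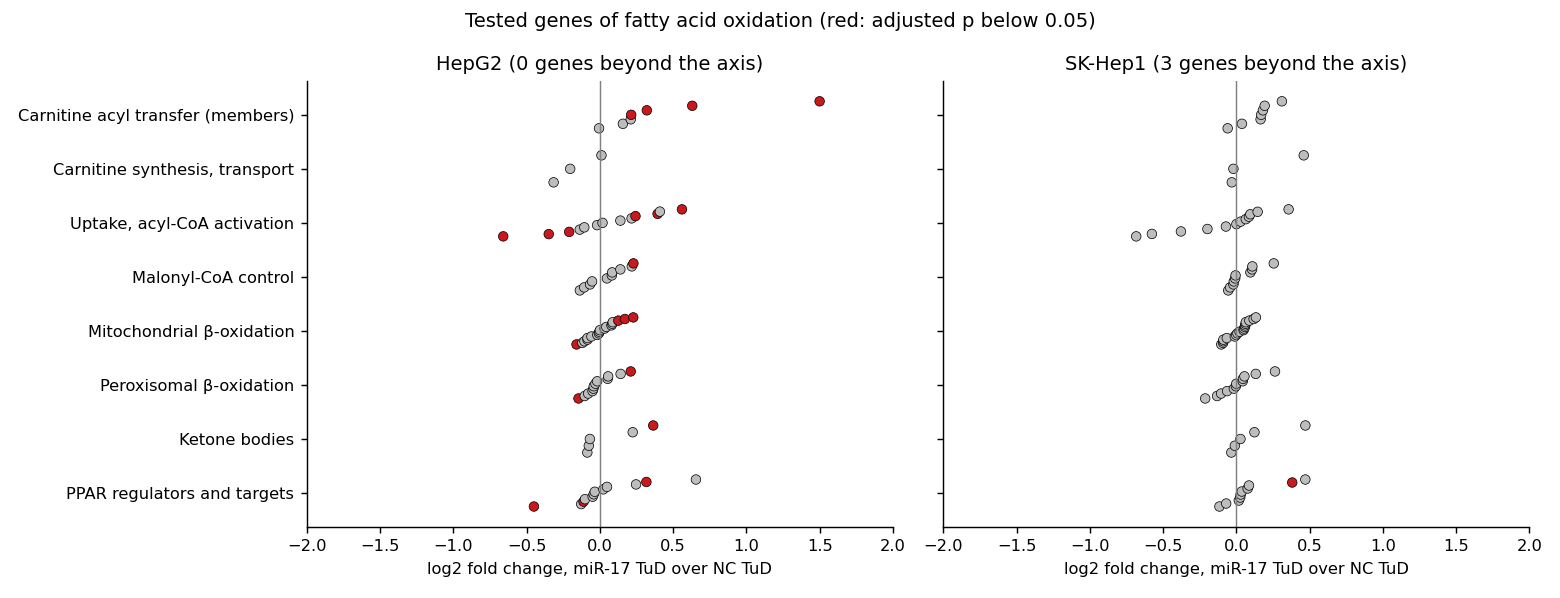
Log2 fold change of miR-17 TuD over NC TuD for each tested gene of the 8 carnitine acyl transfer genes and of the 7 surrounding lists, in HepG2 (left) and SK-Hep1 (right). Red points have an adjusted p below 0.05 by edgeR. In HepG2, CPT1A lies at 1.50 and the other lists stay between -0.66 and 0.66. The SK-Hep1 panel leaves out 3 genes beyond its axis.

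The genes whose levels followed CPT1A most closely were named by Pearson correlation of log2 CPM over the 10 libraries, among 11994 others whose log2 CPM averaged 1 or more. They were SLC48A1 (r = 0.972), PTPRM (0.959), ZNF827 (0.956), SLC22A15 (0.951) and NLRC5 (0.941). SLC48A1, a heme transporter gene, went from 10.8 ± 0.536 to 23.3 ± 0.825 CPM in HepG2 and stood at 21.6 ± 0.840 and 22.3 ± 1.34 CPM in SK-Hep1. All 5 had their lowest group mean in HepG2 NC TuD, as CPT1A did, which the choice by correlation with CPT1A favours. Of the members, CROT was the closest to CPT1A (r = 0.870, rank 28), followed by CPT1B (0.495), while CPT2 (-0.312) had the lowest value. These correlations are descriptions over libraries that share lines and arms, with no test.

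The kinds of match described above were set beside the decoy responses of other genes with the same kind of match. A 3′UTR was searched for 12724 of the 13349 tested genes. An 8mer or 7mer-m8 was present in 24.9% of them. CPT1A belongs to 2479 genes with a 7mer-m8 and no 8mer, of which 12.9% were called higher in HepG2 and 0.605% in SK-Hep1, beside 9.26% and 0.331% of 8757 genes with no match. That class is not uniform: by the letters around the match, which are not reported here, CPT1A lies in a subset of 694 genes of which 9.08% were called higher in HepG2 and 0.144% in SK-Hep1, no more than among genes with no match. In another subset, of 1486 genes, the shares were 15.3% and 0.942%.

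CROT belongs to 685 genes with an 8mer, of which 24.8% were called higher in HepG2 and 5.69% in SK-Hep1. SLC22A5 belongs to 803 genes with a 7mer-A1 alone, of which 9.22% and 0.498% were called higher. Genes within a class are not replicates, 3′UTR length was not held equal, and the classes were compared without a test.

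**Figure D5:**
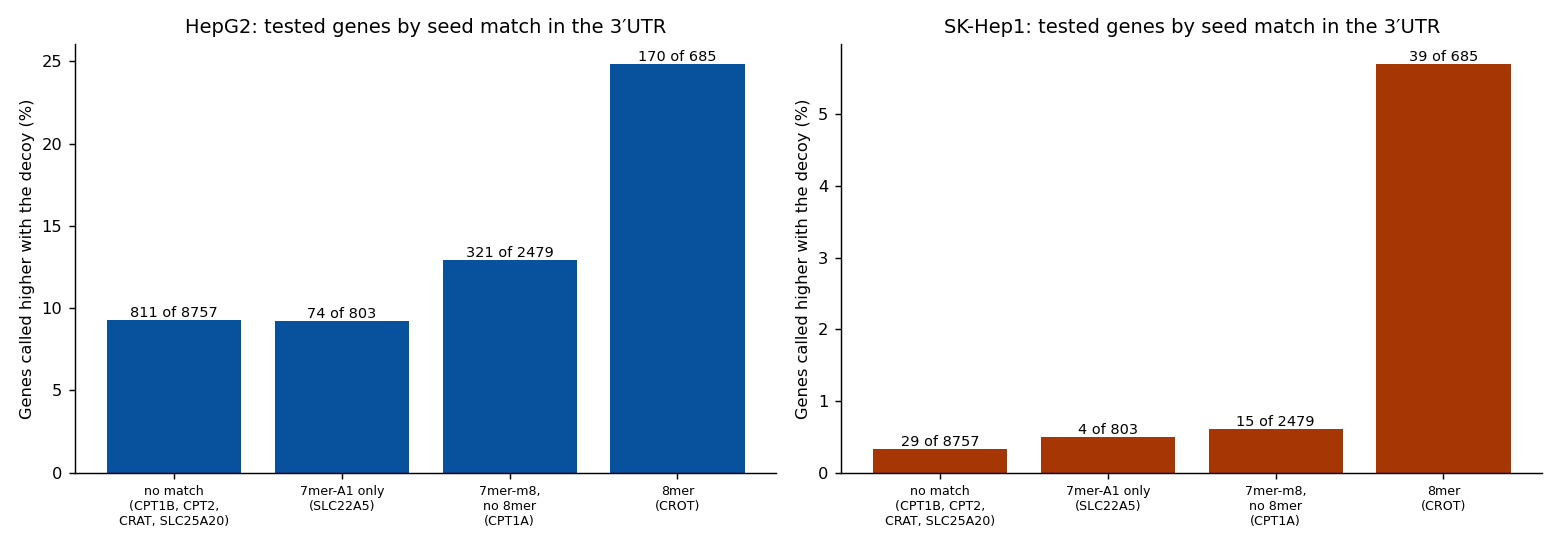
Share of tested genes called higher with the decoy (adjusted p below 0.05 by edgeR), by the kind of seed match in the 3′UTR, in HepG2 (left) and SK-Hep1 (right), on linear axes that start at 0 and differ in height. Genes with an 8mer, the class of CROT, have the tallest bar in each line (24.8% and 5.69%), and the whole 7mer-m8 class is at 12.9% and 0.605%, while the subset of it that holds CPT1A, not drawn on its own, is at 9.08% and 0.144%.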

How the data were processed

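Per the submitters' processing notes, STAR, HTSeq 0.5.4p5 and the build hg19 were used; the series' own text instead gives Bowtie/TopHat, RSEM and mouse. The authors deposited whole-number counts per gene symbol for each library and a log2 matrix, made with voom per the series' own text and used here only as an alternative. Rows for reads outside genes (11.6% to 14.1% of a column), ambiguous, not unique or not aligned were left out. Strand was not recorded, so reads of genes that overlap CPT2 (C1orf123), CRAT (PTPA) or SLC22A5 (MIR3936HG) on the other strand cannot be told apart. Gene counts came to 12884225 to 15076431 per library.

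The test of these counts was that of edgeR 4.0.16 (R 4.3.3): filterByExpr by group (13349 genes kept), TMM scaling and 1 robust quasi-likelihood fit of all 10 libraries with 4 group means, two-sided, Benjamini-Hochberg adjusted over all genes tested, called below 0.05. SE is the log2 fold change over the root of F, and 95% intervals use the t distribution of the fit. On simulated counts, the HepG2 comparison recovered 89% of genes changed 1.5-fold and the SK-Hep1 comparison 83%, over 13276 and 13290 genes. Counts were drawn at the fitted dispersions, with 100 genes changed 1.5-fold and 100 changed 3-fold, all at 1 CPM or above. That is far fewer changed genes than were called in HepG2. Smaller changes, such as those of the members in SK-Hep1, were not simulated. Replicates differed beyond counting error, at a chi-square per degree of freedom of 1.39 to 3.59. The members and lists were chosen with earlier results of these data known. All members are named; of the lists, up to 4 called genes per list and comparison with the smallest adjusted p, ACACB, PPARA, PPARGC1A, MLYCD and ACACA, and the 5 genes most correlated with CPT1A. Some items that this rule or the seed search gives are not reported here. Alternatives were RLE factors, library totals, DESeq2 1.42.0, 2 other filters, limma 3.58.1 on the deposited matrix, a replicate block, only the groups compared, and leaving out each library. Coordinates are from GENCODE 29 (GRCh38), while the counts were made on hg19.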

Additional observations from a re-analysis of the deposited data

Results flagged for a closer look

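The decoy response of CPT1A, miR-17 TuD over NC TuD, was larger in HepG2 than in SK-Hep1 by 1.56 on the log2 scale, and that of CROT by 0.46. Both are among the 3.75% of tested genes for which the fit called a difference of the decoy responses. The HepG2 response was the reason CPT1A was chosen, so its value is a description. Without any 1 library it ran from 1.49 to 1.63. For CROT the call was lost under 9 of 17, with values from 0.39 to 0.53 without any 1 library.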

How the results depend on the processing

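Without any 1 library, the HepG2 log2 fold changes of CPT1A and CROT, given as descriptions, ran from 1.47 to 1.53 and from 0.57 to 0.69. No member gained a call in SK-Hep1 under any alternative. Of 16 calls of named list genes in either line, 13 were lost under at least 1 alternative. Signs turned for values near 0. CPT2 in HepG2 was at 0.00 with RLE factors (0.0021) and DESeq2 (0.0025), at 0.0254 with library totals, and between -0.0598 and 0.0295 without 1 library. PPARA in HepG2 ran from -0.0001 to 0.0474 without 1 library. ACACA in SK-Hep1 was at 0.01 with RLE factors (0.0090) and DESeq2 (0.0086), at 0.0022 with only the groups compared, and from -0.0622 to 0.0513 without 1 library. In SK-Hep1, CPT1A ran from -0.1268 to 0.0133 and CRAT from -0.0316 to 0.1137 without 1 library. The difference of responses for SLC22A5 ran from -0.1132 to 0.1948 without 1 library, and the line difference of CPT1B from -0.0065 to 0.0875.

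The number of genes called in HepG2, 2571, was 1005 on the deposited matrix and 1793 to 2694 without 1 library. With library totals the split of calls in HepG2 went from 1425 higher and 1146 lower to 1822 and 764. In SK-Hep1 the 116 calls became 274 with only the groups compared, and 49 to 70 without 1 library. On the deposited matrix SK-Hep1 had 50 higher and 69 lower, against 89 and 27. Differences between the lines, 500, were 239 on the deposited matrix and 266 to 613 without 1 library. With library totals they split 427 and 90, against 335 and 165. The cause of these shifts was not tested.

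Replicate numbers did not pair the HepG2 libraries: same-numbered arms had correlated deviations of 0.0732, -0.417 and -0.380. Differently numbered HepG2 libraries ran from -0.1415 to 0.464. The highest were miR-17 TuD 3 with NC TuD 2 (0.464) and miR-17 TuD 2 with NC TuD 3 (0.3655). With the replicate block, calls numbered 1872 in HepG2, 58 in SK-Hep1 and 227 for the difference of decoy responses. In SK-Hep1 same-numbered libraries deviated in opposite directions (-0.114). With 2 libraries per arm, the cross-numbered value is the same with its sign turned (0.114). The crossed pairing, added after seeing the data, gave 62 calls. The block ended the call of CROT for the difference of decoy responses (0.46), and of ACACB, ACAD10, ACADM, ACADVL, ECI1 and PLIN2 in HepG2.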
